A study of Mus musculus with 12 samples.

Results

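The 9 genes of bone and cartilage described here, in the spinal cord of P278KY and wt mice, were Runx2, Sp7, Ibsp, Bglap, Dmp1, Phex, Acan, Matn1 and Chad. They were chosen by name and make up 9 of the 38924 genes quantified in each library. All 9 passed the filter on low counts and are among the 17995 genes tested. The 12 libraries came from 12 mice aged 1 week, before disease onset by the labels, on the mixed background B6J;CAST. The 4 groups of 3 mice were female P278KY, female wt, male P278KY and male wt. In P278KY mice Gars, which encodes the synthetase that charges tRNA with glycine, carries that change over a wild-type allele, according to the series title. Their sample titles carry a number in place of the genotype, and the genotype label names the allele. Each library was made from poly(A) RNA of the dissected cord as a whole, so that fewer cells of a type and less RNA per cell cannot be told apart. Libraries are named below by labelled sex, genotype and mouse number.

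Bone is laid down by osteoblasts, which turn into osteocytes as they are buried in the matrix they secrete, and is removed by osteoclasts. Runx2 and Sp7 (osterix) are the transcription factors of the osteoblast lineage. Ibsp (bone sialoprotein), Bglap (osteocalcin) and Dmp1 (dentin matrix protein, made by osteocytes) are secreted into mineralizing matrix, and Phex is a membrane peptidase of osteoblasts and osteocytes whose loss causes phosphate wasting. Acan (aggrecan), Matn1 (matrilin) and Chad (chondroadherin) encode proteins of cartilage matrix. The spinal cord holds no bone or cartilage, and the vertebrae around it hold both. Aggrecan is also a component of perineuronal nets, the matrix that surrounds some neurons of the cord.

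Library totals were 27713981 to 43219891 expected counts. The Gars transcript stood at 92.6 to 105 TPM (transcript abundance scaled to length and library total) in P278KY libraries and at 87.9 to 112 TPM in wt libraries, and total Gars expression does not show which allele a mouse carries. The sex-linked genes went against the label in 2 libraries, both wt. The library labelled female wt 14 had 0.12 TPM of Xist and 18.1 TPM of the Y-linked gene Ddx3y, and the library labelled male wt 19 had 127 TPM of Xist and 0.01 TPM of Ddx3y. In the other 10 libraries Xist was at 129 to 147 TPM in females and at most 0.42 TPM in males. The 2 libraries were kept under their labels. Fitted log2 fold changes between genotypes are given with them and, for part of the genes, also without them. Correlations, coefficients of variation, ratios, the genes most like each member and the summed levels of marker lists were not recomputed with these 2 left out. The same holds for the counts and medians over gene lists other than the members.

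Bglap lies in a cluster with the near-identical copy Bglap2, and their coding sequences are shown because they may limit what can be read from either gene alone. On GRCm38 with the GENCODE M21 annotation, the minus-strand gene Bglap spans 88383501 to 88384464 of chromosome 3, and a gap of 4801 bases separates it from Bglap2. The coding sequences without the stop codon are given 5′ to 3′, with the 4 bases that differ between the genes in capitals.
Bglap: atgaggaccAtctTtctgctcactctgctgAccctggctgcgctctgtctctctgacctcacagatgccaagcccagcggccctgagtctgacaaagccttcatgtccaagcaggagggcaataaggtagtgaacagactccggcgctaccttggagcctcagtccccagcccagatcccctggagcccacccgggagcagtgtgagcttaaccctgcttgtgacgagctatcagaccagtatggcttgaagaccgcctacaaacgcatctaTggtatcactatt
Bglap2: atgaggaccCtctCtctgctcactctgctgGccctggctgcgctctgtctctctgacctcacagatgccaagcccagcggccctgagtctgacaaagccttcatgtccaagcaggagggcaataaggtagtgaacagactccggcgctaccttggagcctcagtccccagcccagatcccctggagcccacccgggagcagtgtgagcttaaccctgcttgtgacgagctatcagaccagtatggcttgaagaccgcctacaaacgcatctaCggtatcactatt
The 2 coding sequences are 285 bases long and 98.6% identical, and their longest shared run is 241 bases. Of the 211 stretches of 75 bases, the read length, 167 (79.1%) are the same in both genes. A single read inside such a stretch does not tell the genes apart. Transcript sequence outside the coding part and the other read of each pair were not examined. How well reads could be divided between Bglap and Bglap2 is therefore not known, and their sum is given beside Bglap.

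In TPM, which corrects for transcript length, the mean levels over the 12 libraries ran from Bglap (23.9 ± 22.4, SD, n = 12) and Ibsp (11.5 ± 6.93) down to Acan (3.71 ± 0.693), Sp7 (3.29 ± 1.06) and Dmp1 (3.27 ± 1.98), then to Chad (1.81 ± 1.17) and Runx2 (1.79 ± 0.385), and last to Matn1 (0.803 ± 0.349) and Phex (0.475 ± 0.327). Neighbours in this order lay closer together than the larger of their SDs, except Ibsp and Acan, and Runx2 and Matn1, whose ranges still overlapped. Several members rested on few reads: Bglap, whose transcript is short (414 to 440 bases), had 10 to 287 counts per library, Phex 13 to 110, Matn1 17 to 53 and Chad 20 to 114.

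**Figure D1:**
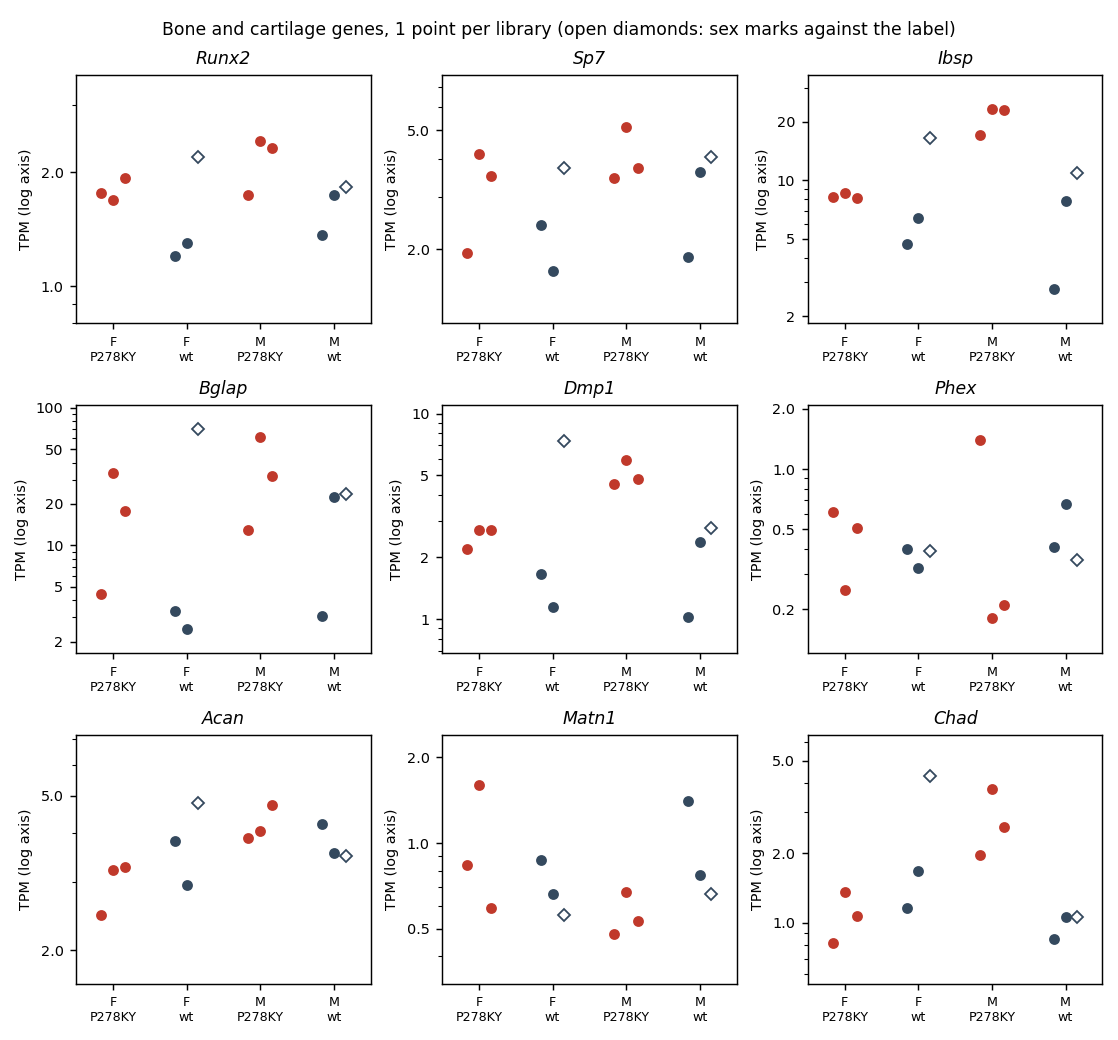
Levels of the 9 genes in TPM (log axes) in 12 libraries, with P278KY left of wt within labelled females (F) and labelled males (M); each point is a mouse, and open diamonds are the 2 libraries whose sex-linked genes went against the label. Ibsp, Dmp1 and Chad were higher in every male P278KY library than in every library labelled male wt, and Acan varied least, between 2.46 and 4.78 TPM.

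The transcription factors of the lineage were present in every library at low levels, Runx2 over a 2.01-fold range and Sp7 over a 3.01-fold range. Runx2 had 1.76, 1.69 and 1.93 TPM in female P278KY libraries, against 1.2, 1.3 and 2.19 TPM in libraries labelled female wt. It had 1.74, 2.41 and 2.32 TPM in male P278KY libraries, against 1.37, 1.74 and 1.83 TPM in libraries labelled male wt. Female wt 14 was the highest of the wt libraries, and the ranges of the genotypes overlapped. Runx2 averaged 1.98 ± 0.314 TPM in P278KY and 1.61 ± 0.380 TPM in wt (SD, n = 6 each). The transcript length behind its TPM varied between libraries from 3747 to 5597 bases, 1.49-fold, and its part in the TPM differences was not tested. Sp7, which acts downstream of Runx2, had 1.95 to 5.12 TPM in P278KY libraries (median 3.64) and 1.70 to 4.06 TPM in wt libraries (median 3.03). It averaged 3.67 ± 1.04 TPM in P278KY and 2.91 ± 1.03 TPM in wt. Runx2 overlaps 5 annotated genes on chromosome 17, 4 of them on the opposite strand, and whether strand was used in the counting is not given in the sources used here.

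Among the 9 genes, Ibsp was the most abundant bone matrix gene after Bglap and had more reads than Bglap, 106 to 820 counts per library. It stood at 8.25, 8.66 and 8.15 TPM in female P278KY libraries, against 4.69, 6.39 and 16.6 TPM in libraries labelled female wt. It stood at 17.1, 23.4 and 23.2 TPM in male P278KY libraries, against 2.76, 7.81 and 10.9 TPM in libraries labelled male wt. The male groups did not overlap, the 3 female P278KY libraries lay close together, and the highest female value belonged to female wt 14. Ibsp averaged 14.8 ± 7.41 TPM in P278KY and 8.18 ± 4.95 TPM in wt (SD, n = 6 each). Dmp1 lies next to Ibsp on chromosome 5, with 85068 bases between the genes. It had 2.2, 2.7 and 2.7 TPM in female P278KY libraries, against 1.65, 1.14 and 7.36 TPM in libraries labelled female wt. It had 4.55, 5.96 and 4.83 TPM in male P278KY libraries, against 1.02, 2.36 and 2.76 TPM in libraries labelled male wt. As for Ibsp, the male groups did not overlap and female wt 14 exceeded every female library, here also every male one. Dmp1 averaged 3.82 ± 1.5 TPM in P278KY and 2.72 ± 2.38 TPM in wt.

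Bglap ranged most widely of the 9 genes, 28.5-fold between libraries. It had 4.47, 33.5 and 17.8 TPM in female P278KY libraries, against 3.32, 2.46 and 70.1 TPM in libraries labelled female wt. It had 12.9, 61.2 and 32.2 TPM in male P278KY libraries, against 3.07, 22.6 and 23.7 TPM in libraries labelled male wt. Low and high libraries occurred in each group, and the genotypes overlapped over most of the range. The sum of Bglap and Bglap2 was 8.74 to 100.2 TPM in P278KY libraries and 3.61 to 97.8 TPM in wt libraries, so it overlapped as much. Bglap took between 42.3% and 92.0% of that sum. Bglap3, a more distant copy in the cluster, stayed between 1.72 and 3.76 TPM.

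Phex, the mineral-regulating peptidase, was near the lower limit of what these counts resolve. It had 0.18 to 1.40 TPM in P278KY libraries (median 0.38) and 0.32 to 0.67 TPM in wt libraries (median 0.40), and both the highest and the lowest value were in male P278KY mice. The transcript length behind its TPM also varied, from 4060 to 6265 bases.

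The cartilage genes did not share 1 pattern. Acan varied 1.94-fold, with 2.46 to 4.74 TPM in P278KY libraries (median 3.58) and 2.95 to 4.78 TPM in wt libraries (median 3.69). Matn1 had 0.48 to 1.60 TPM in P278KY libraries (median 0.63) and 0.56 to 1.40 TPM in wt libraries (median 0.72). Chad had 0.82, 1.36 and 1.07 TPM in female P278KY libraries, against 1.16, 1.68 and 4.31 TPM in libraries labelled female wt. It had 1.97, 3.78 and 2.58 TPM in male P278KY libraries, against 0.85, 1.06 and 1.06 TPM in libraries labelled male wt. The order of the genotypes in Chad was thus opposite in the labelled sexes. Each male P278KY value exceeded each value labelled male wt, while 2 of the 3 values labelled female wt exceeded every female P278KY value. The highest of these, 4.31 TPM, was from female wt 14, whose sex-linked genes were those of a male, and it exceeded every male P278KY value. Chad lies on chromosome 11 at 94565047 to 94569127 (GRCm38), wholly inside the span of Acsf2 on the opposite strand. Whether exons of the 2 genes overlap, and so whether their reads could be confused if strand was not used, was not examined.

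Between-library variation was wide in 5 of these genes. In 5 of the 9 (Ibsp, Bglap, Dmp1, Phex and Chad) the highest library exceeded the lowest by at least 5-fold in TPM, which 6.70% of all tested genes did. The biological coefficient of variation estimated by edgeR was 103% for Bglap, 58.3% for Dmp1, 57.1% for Chad, 53.3% for Ibsp and 50.3% for Phex, against 23.9% over all genes. The values fitted for genes of the same abundance were 36.8% for Bglap, 33.5% for Dmp1, 40.0% for Chad, 24.4% for Ibsp and 40.8% for Phex. It was 37.3% for Matn1, 32.9% for Sp7, 21.1% for Runx2 and 18.0% for Acan, each below the value for its abundance (41.8%, 33.1%, 34.1% and 22.0%, in the same order). Summed over the 9 genes, TPM ran from 23.4 to 107 in P278KY libraries (median 52.3) and from 17.0 to 110 in wt libraries (median 31.8).

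Ibsp, Dmp1, Bglap, Sp7 and Runx2 were high and low in much the same libraries, and Chad shared this pattern only in part. Of the 36 pairs among the 9 genes, 10 had an adjusted permutation p under 0.05 both by Pearson's r and by Spearman's rho of log2(TPM + 0.1) over 12 libraries, and each lay within these 6 genes. Ibsp and Dmp1 had r = 0.921 (permutation p = 3e-05, adjusted over 36 pairs 0.00108) and rho = 0.925 (p = 8e-05, adjusted 0.00216), and r was 0.877 without the 2 libraries farthest from the median of Ibsp. Sp7 and Bglap had r = 0.933 (permutation p = 0.00011, adjusted 0.00198) and rho = 0.916 (p = 0.00012, adjusted 0.00216), and r was 0.885 without the farthest 2. Runx2 and Dmp1 had r = 0.877 and rho = 0.832 (adjusted permutation p 0.0024 and 0.0104), and r was 0.889 without the farthest 2. Chad entered only through Dmp1, with r = 0.787 and rho = 0.719 (adjusted permutation p 0.0109 and 0.0371), and r was 0.655 without the farthest 2. Runx2 with Sp7 and Ibsp with Chad passed by r alone, and no pair with Acan, Matn1 or Phex passed by either measure. Matn1 ran against Ibsp with r = -0.656 and rho = -0.578, which did not pass (adjusted permutation p 0.0562 and 0.136).

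**Figure D2:**
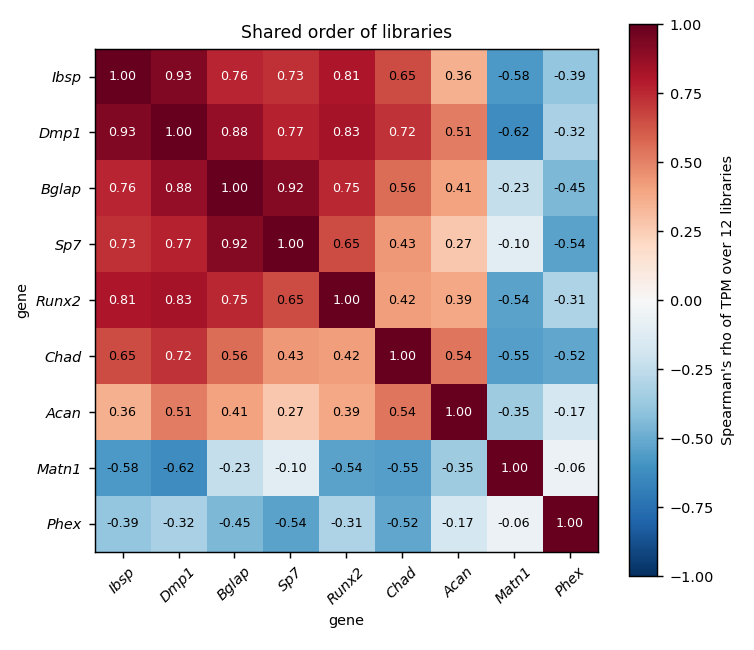
Spearman's rho of TPM over 12 libraries for each pair of the 9 genes, from -1 to 1. Ibsp, Dmp1, Bglap, Sp7 and Runx2 form a block of high values (0.925 for Ibsp and Dmp1), and Acan, Matn1 and Phex stand outside it.

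The proportions of these genes to Ibsp differed in how much they varied. Dmp1 was 0.178 to 0.445 of Ibsp in TPM, a 2.49-fold range over the 12 libraries in which Ibsp itself ranged 8.48-fold. Sp7 was 0.162 to 0.681 of Ibsp, a 4.21-fold range, and Runx2 was 0.10 to 0.496 of Ibsp, a 4.96-fold range. Bglap was 0.385 to 4.24 times Ibsp, an 11-fold range, against 28.5-fold for Bglap itself. Male P278KY 5 was among the 3 highest of 12 libraries for 6 of the 9 genes, and male P278KY 13 and female wt 14 for 5 each. Male wt 6 and female wt 2 were among the 3 lowest for 6 genes each. High libraries therefore came from both genotypes.

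The 3 tested genes most like each member, by Spearman's rho of log2 CPM (counts scaled to library size) over 12 libraries, were named by a fixed rule and are a description. For Dmp1 they were Ctsk (rho = 0.993), the osteoclast protease cathepsin K, Dlx3 (0.979), a homeobox gene of bone and skin, and Atp6v0d2 (0.972), an osteoclast proton pump subunit. For Ibsp they were Aspn (0.958), a small matrix proteoglycan, Panx3 (0.944), a channel of skeletal cells, and Runx2 (0.944). For Runx2 they were Hoxa5, Ibsp and Aspn (0.944 each). For Chad they were Lrdd (0.951), Col2a1 (0.923) and Col10a1 (0.923), the last 2 being the main collagen of cartilage and the collagen of hypertrophic cartilage. For Bglap they included Col11a2 (0.916), a cartilage collagen, beside Tmed3 (0.916) and Fkbp11 (0.888), genes of the secretory pathway. Acan was most like Hoxa6 (0.909), Sp7 most like Sft2d1 (0.944), Matn1 most like Slc38a6 (0.867) and Phex most like Nemf (0.916), none of them a listed bone or cartilage gene.

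Promoters were examined because RUNX factors bind the core letters ACCACA, which read TGTGGT on the other strand. A further reason was that Ibsp, Bglap and Dmp1 varied together with Runx2, whereas Sp7 did so by r alone and Phex did not. RefSeq promoters (GRCm38.p6, the 250 bases before the start site) were found for 8 of the 9 genes, in 9 windows, and Sp7 had none in the table. ACCACA on either strand occurred in 4 windows, of Bglap, Dmp1, Matn1 and Runx2, and in 14% of the 32851 windows of all genes. Windows of 3 of these genes are shown 5′ to 3′ on the strand of the gene, with the motif in capitals: Bglap (chr3:88384467-88384716, minus strand), Dmp1 (chr5:104202367-104202616, plus strand) and Matn1 (chr4:130944135-130944384, plus strand).
Bglap: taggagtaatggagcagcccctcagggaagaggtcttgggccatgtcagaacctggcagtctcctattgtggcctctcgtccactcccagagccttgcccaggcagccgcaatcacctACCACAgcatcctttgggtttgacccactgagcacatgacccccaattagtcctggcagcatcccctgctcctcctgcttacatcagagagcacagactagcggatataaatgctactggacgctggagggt
Dmp1: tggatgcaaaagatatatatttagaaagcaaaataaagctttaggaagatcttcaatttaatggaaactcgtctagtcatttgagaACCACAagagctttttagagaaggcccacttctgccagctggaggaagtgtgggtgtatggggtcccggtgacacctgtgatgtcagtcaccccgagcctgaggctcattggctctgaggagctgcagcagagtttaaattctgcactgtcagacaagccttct
Matn1: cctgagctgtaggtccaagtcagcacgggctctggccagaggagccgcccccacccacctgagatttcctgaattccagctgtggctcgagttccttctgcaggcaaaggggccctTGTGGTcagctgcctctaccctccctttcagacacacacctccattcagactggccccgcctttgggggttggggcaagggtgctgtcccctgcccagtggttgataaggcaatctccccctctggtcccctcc
The motif began 132 bases before the start site in Bglap, 164 in Dmp1 and 134 in Matn1. Bglap and Dmp1 varied with Runx2 across libraries, whereas Matn1, which holds the same letters, did not, and Ibsp, which holds none in its window, did. The SOX letters ACAAAG, searched on both strands, occurred in 1 window, that of Phex, and in 16.5% of all windows. The GC box CCGCCC, searched likewise on both strands and bound by SP factors, occurred in 3 windows and in 32.7% of all. A match of this kind is a description and not a binding site.

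For genotype, no member passed the threshold of 0.05 for the adjusted p in edgeR's quasi-likelihood test with labelled sex as a term, in which 1 gene (0.00556% of 17995) did. At an unadjusted p under 0.05 there were again 0 members, against 4.09% of all genes in either direction and 2.4% higher in P278KY. DESeq2 called 0 of the 8 members it gave an adjusted p and 0.185% of genes. The fitted log2 fold change was above 0 in 7 of the 9, against 46.9% of all genes. Its median was 0.33 over the members and -0.01 over all genes. Several members varied together, so counts of members, here and within each sex, are not counts of separate results. Ibsp had a log2 fold change of 0.74 ± 0.47 (SE), Dmp1 of 0.49 ± 0.51, Phex of 0.39 ± 0.42, Sp7 of 0.36 ± 0.25, Bglap of 0.33 ± 0.95, Runx2 of 0.25 ± 0.14, Chad of 0.21 ± 0.52, Acan of -0.05 ± 0.13 and Matn1 of -0.06 ± 0.32. The adjusted p was 0.9999 for each (edgeR), and each value lay within 2 SE of 0. In no member did all 6 P278KY libraries lie above or below all 6 wt libraries in TPM, which 0.0667% and 0.133% of all genes did.

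These values depended on the 2 libraries with discordant sex-linked genes. Without them the log2 fold change was 1.27 ± 0.26 for Dmp1, 1.30 ± 0.39 for Ibsp, 2.0 ± 0.80 for Bglap, 0.65 ± 0.26 for Sp7 and 0.39 ± 0.13 for Runx2 (6 P278KY against 4 wt libraries). These 5 then had an unadjusted p under 0.05 in edgeR, 5 of 9 members against 5.76% of 18168 genes. All 5 were higher in P278KY, against 3.87% of genes in that direction. The 5 genes varied together across libraries, so they do not count as separate results. For each of them the highest wt library was 1 of the 2 left out. The log2 fold change was above 0 in 8 of 9 members, against 49.4% of genes. None passed after adjustment over all genes, nor did any other gene (0%), and the smallest adjusted p among members was 0.254, for Dmp1. Leaving out female wt 14 alone gave 1.15 for Ibsp, 1.15 for Dmp1 and 1.70 for Bglap, with adjusted p of 0.41 for Dmp1 and 0.9999 for Ibsp and Bglap (edgeR).

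**Figure D3:**
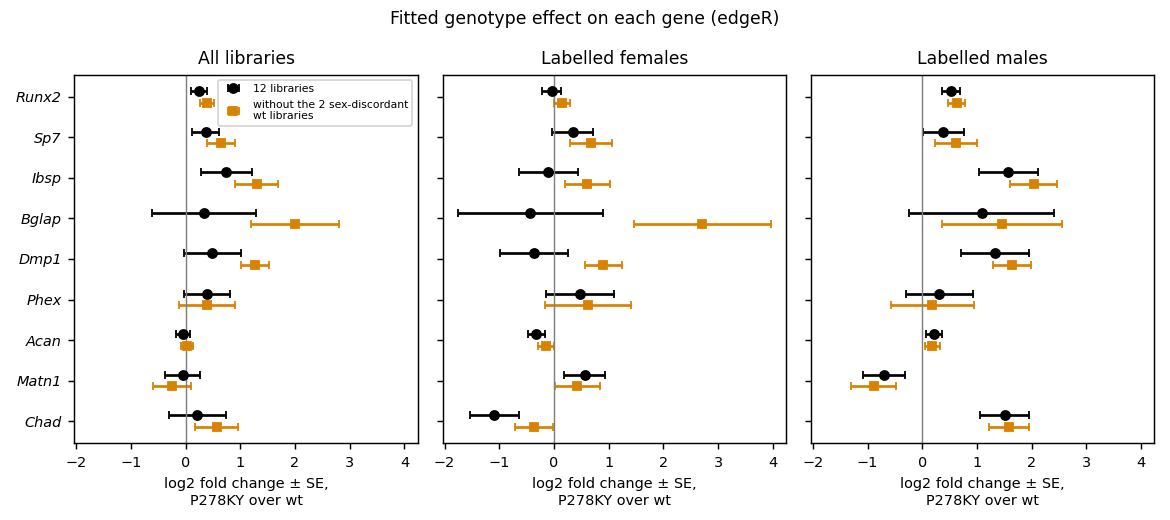
Fitted log2 fold changes of P278KY over wt for the 9 genes, with standard errors from edgeR, over all libraries and within each labelled sex; circles use 12 libraries and squares leave out the 2 wt libraries with discordant sex-linked genes. With 12 libraries, in males 8 of 9 values lie above 0 (Ibsp 1.58, Chad 1.51) and in females 3 of 9, and without the 2 libraries Bglap is at 2.72 in females; no value passed after adjustment.

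Within males, no member passed the adjusted test, and the fitted values were above 0 for every member but Matn1. The log2 fold change in males was 1.58 ± 0.55 for Ibsp, 1.51 ± 0.44 for Chad, 1.34 ± 0.62 for Dmp1 and 0.53 ± 0.17 for Runx2. In edgeR the unadjusted p was 0.0173 for Ibsp, 0.00587 for Chad, 0.0574 for Dmp1 and 0.0102 for Runx2, and the adjusted p was 0.942 for each. It was above 0 in 8 of 9 members, against 49.3% of all genes, and 3 of 9 members had an unadjusted p under 0.05 (Ibsp, Chad and Runx2), against 4.91% of all genes, or 2.26% counting higher ones alone. All 3 male P278KY libraries exceeded all 3 libraries labelled male wt in TPM in 3 of 9 members (Ibsp, Dmp1 and Chad), against 3.11% of all genes, and lay below them in 0 members, against 7.39%. Over the 9 members adjusted p-values lay between 0.942 and 0.983 in edgeR, in which no gene passed (0%), and DESeq2 called 0 members and 0.19% of genes. The value for Phex, 0.31, rests on male P278KY 3 (1.40 TPM, against 0.18 and 0.21 TPM in the other male P278KY libraries) and was -1.09 without it. Without the discordant libraries the male values were 2.04 for Ibsp, 1.64 for Dmp1, 1.59 for Chad and 0.63 for Runx2.

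Within females no member passed either, and most fitted values were below 0. The log2 fold change was above 0 in 3 of 9 members (Matn1 0.56, Phex 0.48 and Sp7 0.34), against 48.1% of all genes, and it was -0.10 ± 0.54 for Ibsp and -0.37 ± 0.62 for Dmp1. Chad had -1.09 ± 0.44 (unadjusted p = 0.0313, adjusted 0.421, edgeR), the 1 member of 9 at an unadjusted p under 0.05, against 10.7% of all genes, and 0 members were higher at that p, against 5.81%. No gene passed after adjustment in edgeR (0%), and DESeq2 called 0 members and 1.68% of genes. In 0 members did all 3 female P278KY libraries lie above or below all 3 libraries labelled female wt, against 4.36% and 8.49% of all genes. Without female wt 14 and male wt 19 the sign turned for 4 members in females: Ibsp had 0.61, Dmp1 0.90, Bglap 2.72 and Runx2 0.15, while Chad had -0.37.

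The difference between the sexes in the genotype effect (female minus male, on the log2 scale) was largest among the members for Chad, at -2.60 ± 0.63. It had an unadjusted p of 0.00159 and an adjusted p of 0.22 in edgeR, and an adjusted p of 0.0169 in DESeq2, in which 1.73% of genes passed. At an unadjusted p under 0.05 in edgeR there were 4 of 9 members (Chad, Acan -0.54, Matn1 1.26 and Runx2 -0.57), against 10.9% of all genes, and no gene passed after adjustment (0%). The difference was above 0 in 2 of 9 members (Matn1 and Phex), against 49.2% of all genes. Ibsp had -1.68 ± 0.76 and Dmp1 -1.70 ± 0.87 (adjusted p 0.464 and 0.518 in edgeR). Without both discordant libraries the difference was -1.95 for Chad, -1.43 for Ibsp and -0.74 for Dmp1, and without female wt 14 alone it was -0.97 for Ibsp and -0.44 for Dmp1. Since 1 wt library of each labelled sex goes against its label, this contrast is not a clean comparison of the sexes.

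No companion gene of bone, cartilage, osteoclasts, tendon or perineuronal nets passed for genotype. Of 15 tested osteoblast and osteocyte genes other than the members, 12 had a log2 fold change above 0 and 3 below, with a median of 0.22. Among the most abundant, Col1a1, the main collagen of bone, had 0.38 ± 0.47, Spp1 (osteopontin) 0.25 ± 0.51 and Fam20c, the kinase of secreted phosphoproteins, -0.07 ± 0.04. Of 22 tested chondrocyte genes 15 were above 0 and 7 below, with a median of 0.08. In labelled males 16 of the 22 were above 0 (median 0.21) and in labelled females 7 (median -0.15), against 49.3% and 48.1% of all genes. The most abundant, Fgfr3, Col9a3 and Col11a2, had -0.07 ± 0.07, -0.08 ± 0.08 and -0.02 ± 0.11, and need not stand for the rest of the list. Of 9 tested osteoclast genes 8 were above 0 and 1 below (median 0.12), with Ctsk at 0.40 ± 0.47, Acp5 at 0.50 ± 0.70 and Mmp9 at 0.05 ± 0.33. Without the 2 discordant libraries Col1a1 had 1.13, Spp1 0.94, Ctsk 1.09 and Acp5 1.37, with adjusted p of 0.246, 0.535, 0.329 and 0.532 in edgeR. Fmod in the tendon list had 0.82 and Thbs4 1.08 without them. In males all 9 osteoclast genes and 14 of the 15 osteoblast and osteocyte genes were above 0, with medians of 0.67 and 0.63. In females 1 and 3 were, with medians of -0.31 and -0.15. Genes of 1 list need not vary separately, so these counts are not of separate results. Of 6 tendon and ligament genes 5 were above 0 (median 0.32), with Thbs4 at 0.34 ± 0.65, Fmod at 0.29 ± 0.33 and Scx at -0.04 ± 0.15. The partners of RUNX and SP factors were even, 3 of 5 above 0 (median 0.03), with Cbfb, the RUNX cofactor, at 0.03, Sp3 at 0.10 and Sp1 at 0.04. Of 7 perineuronal net genes 4 were above 0 (median 0.00), with Bcan at -0.02, Tnr at -0.01 and Ncan at 0.06.

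Neighbouring tissues were measured beside the bone genes as the summed TPM of marker lists fixed by name. The osteoclast sum was 37.8 to 99.6 in P278KY libraries (median 58.5) and 30.4 to 117 in wt libraries (median 44.4), highest in female wt 14, and in males 64.3 to 99.6 in P278KY against 30.4 to 53.7 in wt. The skeletal muscle sum was 96.4 to 2977 in P278KY libraries (median 733) and 12.7 to 1153 in wt libraries (median 46.1), with all 10 muscle genes above 0 in log2 fold change (median 2.71) and 6 of 10 at an unadjusted p under 0.05 in edgeR, against 46.9% and 4.09% of all genes. The 10 muscle genes are markers of 1 tissue, and all but Chrna1 were highest in male P278KY 3. They therefore do not count as separate results. Muscle was highest in male P278KY 3, which among 12 libraries ranked 1 for Phex, 3 for Ibsp, 4 for Dmp1 and Chad, 5 for Acan, 7 for Runx2, 8 for Sp7 and Bglap and 12 for Matn1. The Schwann cell sum was 47.8 to 2467 in P278KY libraries (median 1164) and 238 to 3319 in wt libraries (median 2699), with all 7 genes below 0, and it was lowest in male P278KY 3. The sensory ganglion sum was 40.3 to 62.8 in P278KY libraries (median 52.95) and 49.8 to 302 in wt libraries (median 56.42). The value of 302 was that of female wt 14, and the next highest wt value was 73.9, in male wt 9. All 8 tested genes were below 0, in fits that include female wt 14. Of all tested genes, 46.9% were above 0. The fibroblast and meninges sum was 413 to 694 in P278KY libraries and 292 to 1078 in wt libraries, again highest in female wt 14. In labelled males it was 503 to 561 in P278KY against 292 to 440 in wt. Of its 8 genes, 4 were above 0 in log2 fold change in labelled males (median -0.03) and 7 in labelled females (median 0.07). Of all tested genes, 49.3% and 48.1% were. The tendon and ligament sum was 21 to 65.1 in P278KY libraries and 21.5 to 50.6 in wt libraries, and in males 36.3 to 65.1 in P278KY against 24.4 to 34.9 in wt. In labelled males the osteoclast, fibroblast and tendon sums thus did not overlap between genotypes, like Ibsp, Dmp1 and Chad. The osteoblast and osteocyte sum did not overlap either (420.6 to 616.4 in P278KY, 284.8 to 403.1 in wt). The largest part of that sum was Col1a1, with a mean of 236.7 TPM. Col1a2 and Col3a1, with means of 247.3 and 159.3 TPM, were the largest parts of the fibroblast sum. The sums need not count as separate results. The chondrocyte sum overlapped (425.7 to 527.6 in P278KY, 440.5 to 478.8 in wt). Its largest parts were Fgfr3, Col9a3 and Col11a2, with means of 128.4, 81.5 and 52.81 TPM. Among its scarcer genes, Col2a1 and Col10a1 had male log2 fold changes of 2.23 ± 0.80 and 1.13 ± 0.42 (SE). Their adjusted p was 0.942 in edgeR, and in females they had -1.51 and -0.70. In labelled males 16 of the 22 tested chondrocyte genes were above 0. Of single genes, 3.11% were higher in all male P278KY libraries than in all labelled male wt libraries, and 7.39% were lower. The bone marrow and neutrophil sum was 103 to 594 in P278KY libraries and 124 to 839 in wt libraries. The red blood cell sum was 33.8 to 86.5 in P278KY libraries and 24.4 to 115 in wt libraries. The cord neuron sum was 1502 to 1886 in P278KY libraries and 1499 to 1974 in wt libraries. Among these lists Kera was listed at 0 in 4 libraries and Mrgprd in 2, and Mepe and Epyc in 1 each, and the other genes found were above 0 in all 12. The part of these tissues in the levels of the 9 genes was not tested.

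**Figure D4:**
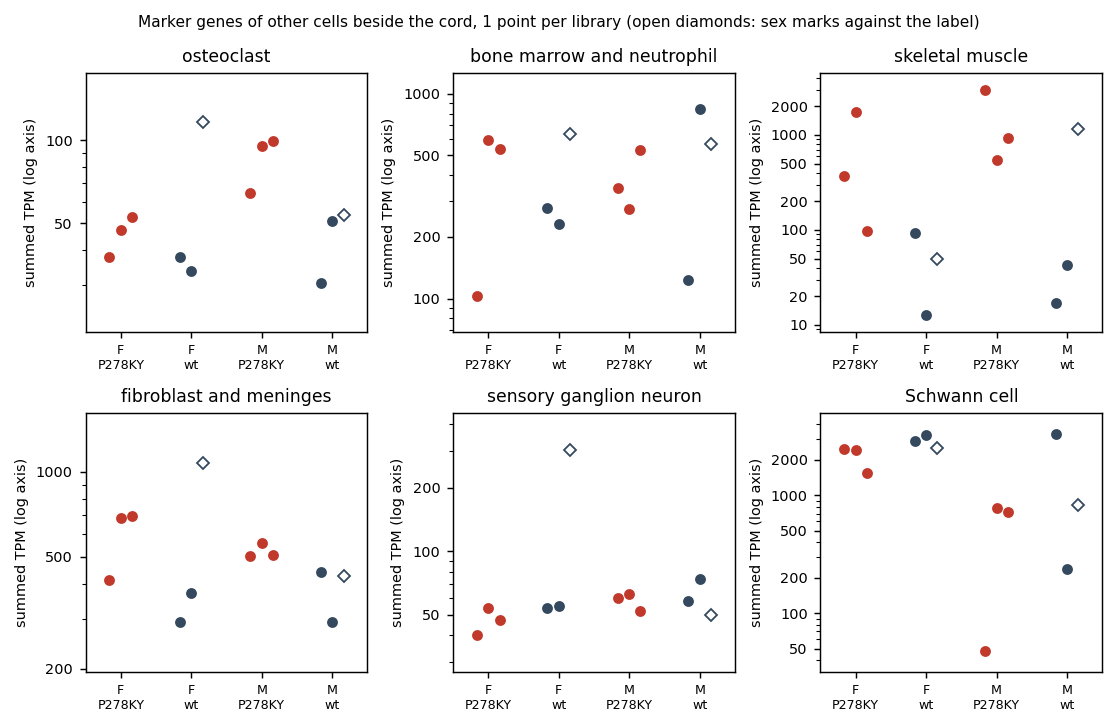
Summed TPM of marker lists of neighbouring tissues (log axes) in 12 libraries, with P278KY left of wt within each labelled sex; open diamonds are the 2 libraries whose sex-linked genes went against the label. Skeletal muscle spans 96.4 to 2977 in P278KY and 12.7 to 1153 in wt, and female wt 14 is the highest library for osteoclast, fibroblast and sensory ganglion genes.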

How the data were processed

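RNA of spinal cord was sequenced from 12 mice, 3 in each combination of labelled sex and genotype. Libraries were made from poly(A) RNA with stranded KAPA kits and read as pairs of 75 bases, per the labels' protocols. The submitters' processing notes name Bowtie2 2.2.0 and RSEM 1.2.12. Build, annotation and strand setting were not given in the sources used here. In each file, per the file headers, the authors deposited an expected count, a TPM and an FPKM value for each gene. The deposited expected count is an estimate that divides reads among genes and transcripts they could come from. The deposited TPM is scaled to transcript length and library total. The deposited FPKM was not used.

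Expected counts were rounded, filtered with filterByExpr, scaled with TMM and tested with edgeR 4.0.16 (quasi-likelihood, robust, R 4.3.3) over all 17995 genes, with labelled sex as a term and Benjamini-Hochberg adjustment at 0.05. A second fit, with a mean for each of the 4 groups, gave within-sex values and the interaction. The SE of a log2 fold change was derived from it and the F statistic (square root). Correlations of member pairs used log2(TPM + 0.1) and 100000 permutations. Log2 CPM used a prior count of 2. Counting error limits genes with few reads.

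The members and gene lists were chosen with earlier results of these data known. Named genes are the 9 members, up to 4 genes per list past the threshold or otherwise the 3 with the highest mean TPM, and the 3 genes most like each member. Lists held 122 symbols in 13 lists, of which 119 were found. Positions are from GENCODE M21 on GRCm38. Sequences were matched by symbol to RefSeq (promoters) and GENCODE (coding), and fits were checked on simulated counts. Alternatives were RLE factors, library totals, no filter, a strict filter that asks for CPM above 1 in at least 6 libraries, DESeq2 1.42.0, limma-trend 3.58.1 on log2(TPM + 1) and log2(TPM + 0.1), no sex term, each library left out, and both sex-discordant libraries left out.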

Additional observations from a re-analysis of the deposited data

Results flagged for a closer look

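In 7 of the 18 sets formed by 1 gene and 1 genotype, a single library stood apart from the other 5 of its genotype by Dixon's ratio of gap to range at the 95% level. Chance gives about 1 in 20 for separate sets of normally distributed values. TPM was taken here without logs, all 7 flags are high values, and several members varied together. That share therefore need not hold here. Female wt 14 stood above the other wt libraries for 3 genes, with Bglap at 70.1 TPM (gap over range 0.687), Dmp1 at 7.36 TPM (0.726) and Chad at 4.31 TPM (0.76). Phex stood high in male P278KY 3 at 1.4 TPM (0.648) and in male wt 9 at 0.67 TPM (0.743). Matn1 stood high in female P278KY 7 at 1.6 TPM (0.679) and in male wt 6 at 1.4 TPM (0.631). No library stood apart in this way for Ibsp, Sp7, Runx2 or Acan.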

How the results depend on the processing

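No paired analysis was possible because mouse numbers are not shared between groups. No member passed for genotype under any alternative. Of 80 member values under alternatives other than single omissions, 1 changed sign, and of 108 values with 1 library left out, 10 did. The count of genes called for genotype, 1 in edgeR, was 0 with the strict filter, 2 with no sex term, 33 in DESeq2, 0 without both sex-discordant libraries and 1 to 3 with 1 library left out (3 without female wt 2, 2 without female P278KY 10). Within females, where edgeR called 0, DESeq2 called 289 genes, edgeR without both libraries 11 and single omissions 0 to 9 (9 without female wt 14). Within males the counts were 34, 4 and 0 to 4, and for the interaction 279, 5 and 0 to 3, of which 1 member, Chad, in DESeq2 only. Matn1 was not tested under the strict filter, and Dmp1 had no adjusted p for genotype in DESeq2. The log2 fold change of Sp1 was -0.01033 and -0.01134 with limma-trend at the 2 pseudocounts. Without both sex-discordant libraries it was 0.01777 for Acan, 0.1543 for Col11a2, 0.005071 for Bcan and 0.00891 for Scx, in females 0.1462 for Runx2, 0.6127 for Ibsp, 2.715 for Bglap and 0.901 for Dmp1, and for the interaction 0.06406 for Sp7 and 1.255 for Bglap, each with its sign turned. With 1 library left out, the genotype log2 fold change ran from 0.4528 to 1.149 for Ibsp, 0.2232 to 1.148 for Dmp1, 0.226 to 0.5136 for Sp7, 0.1607 to 0.3589 for Runx2, -0.1186 to 0.0527 for Acan, -0.05148 to 1.7 for Bglap, -0.04991 to 0.6706 for Chad, -0.3481 to 0.1561 for Matn1 and -0.1776 to 0.5931 for Phex. Among companions it ran from -0.03465 to 0.1069 for Cbfb, -0.0748 to 0.07969 for Col11a2, -0.0002827 to 0.8469 for Spp1, -0.1273 to 0.36 for Mmp9, -0.06768 to 0.01736 for Bcan, -0.09931 to 0.09576 for Tnr, -0.1199 to 0.07873 for Scx and -0.02963 to 1.158 for Thbs4. Within females it ran from -0.1376 to 0.1461 for Runx2, -0.4303 to 0.6126 for Ibsp, -1.152 to 2.715 for Bglap and -0.7683 to 0.9008 for Dmp1, and within males from -1.088 to 0.7326 for Phex. For the interaction it ran from -0.2778 to 0.2941 for Sp7, -2.24 to 1.625 for Bglap and -0.2578 to 1.563 for Phex. The genotype sign turned without male P278KY 5 for Bglap and Chad, without male wt 6 for Chad and Matn1, without male P278KY 3 for Phex and Matn1, without female P278KY 10 or male P278KY 13 for Matn1, and without female wt 14 or female P278KY 4 for Acan. The cause was not tested. Depth limits Bglap, Phex, Matn1 and Chad, each with 20 or fewer counts in at least 1 library.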
